A study of Mus musculus with 8 samples.

Results

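The proteasome genes described here are the 47 rows, among 34478 gene symbols in the deposited table, whose symbol is Psma, Psmb, Psmc, Psmd, Psme, Psmf or Psmg followed by a number. The rule picks them by symbol and uses no measured value. Psma8, an alpha subunit of the testis, is not analysed here. The libraries came from 4 primary murine lines of pancreatic ductal adenocarcinoma (PDAC), numbered #1, #3, #5 and #10, after 48 h with trametinib or with the solvent DMSO, with 1 library per line and treatment and 8 libraries in all. Trametinib inhibits MEK, a kinase of the MAPK pathway, and each line received it at its own IC50, the dose of half-maximal inhibition, for which the labels give no number. Both treatment groups come from the same mouse model, with the alleles Ptf1awt/Cre and Trp53loxP/loxP among others, in which Cre under control of the pancreatic gene Ptf1a deletes Trp53. All lines come from this 1 model. Whether each line came from a separate animal is not stated, so the spread and p-values describe these 4 lines.

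The 26S proteasome breaks down proteins tagged with ubiquitin. Its 20S core is a barrel of alpha rings (Psma) around beta rings (Psmb), in which Psmb5, Psmb6 and Psmb7 carry the proteolytic sites, and its 19S cap unfolds the substrate with ATPases (Psmc) and binds and strips ubiquitin with non-ATPase subunits (Psmd). In cells exposed to interferon, Psmb8, Psmb9 and Psmb10 can take the places of Psmb5, Psmb6 and Psmb7 and form the immunoproteasome, which favors peptides that fit MHC class I. The Psme genes encode alternative activators of the core: Psme1 and Psme2 form the interferon-inducible 11S cap PA28 alpha-beta, Psme3 forms the nuclear PA28 gamma, and Psme4 encodes PA200, which is not an 11S protein.

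The values are normalized counts per gene, which the authors scaled to make libraries comparable. They summed to 30680091 to 36385719 per library, and the step between low values put the depth at about 29300000 to 46000000 reads, at which 3 reads, used here as a floor, are worth 2.33 to 3.72 normalized counts. The feedback gene Dusp6, a check of the treatment, had a log2 fold change (log2FC, trametinib against DMSO) of -2.51 (standard error, SE, 0.14, adjusted p = 0.00012 in limma). Of 7 duct epithelium markers, 6 stood above the floor in every library and 1, Epcam, was listed at 0 in 6 libraries and at 10.4 or less in the others. Of the 6 tested, 5 were lower with trametinib, among them Krt7 at -0.97 and Sox9 at -1.49, and their part in the values below was not tested. The summed level of 9 leukocyte markers ran from 970.2 to 2490 normalized counts with DMSO and from 1106 to 3681 with trametinib, most of it Cd14, with Cd3e and Cd4 at or under the floor in every library. Of these 9, only Csf1r passed, higher with trametinib at 2.83 (adjusted p = 0.00070 in limma), and its part in the values below was not tested. That of 8 fibroblast markers ran from 65.8 to 239 and from 63.6 to 153, with Lum listed at 0 throughout and none called.

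Trametinib was followed by lower RNA of most proteasome genes. Of the 47 members, 45 had a mean of at least 10 normalized counts and were tested, and 38 of these were lower and 5 higher in limma (adjusted p under 0.05), fitted with a block for the cell line and adjusted over 15888 genes. Over all genes tested, 25.6% were lower and 27.3% higher. The higher members were the lid subunit Psmd8, the activators Psme1, Psme2 and Psme4, and the thymus-specific beta subunit Psmb11. Psmd9 and Psmd10 did not pass, and Psmb8 and Psmb9 were too low to be tested. Without the block, 19 members were lower and 1 was higher. In these bulk samples, fewer cells with a transcript and less of it per cell cannot be told apart.

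The median log2FC over all 47 members was -0.50 ± 0.15 (SD, n = 4 lines), against 0.05 ± 0.01 for the median of all genes tested. It was -0.37 in line #1, -0.70 in line #3, -0.51 in line #5 and -0.41 in line #10. In 39 members trametinib was the lower value in all 4 lines and in 6 it was the higher value in all 4, one of which was Psmb8, whose DMSO values were all at or under the floor. The DMSO and trametinib ranges did not overlap in 25 members, and over all genes tested 31.3% had ranges that did not overlap. Most members are abundant, and abundant genes were lower more often than all genes tested: of 6656 genes with a mean of at least 1000, 39.6% were lower and 25.2% were higher, with a median log2FC of -0.13. Of the 38 members above the same mean, 33 were lower and 4 were higher.

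**Figure D1:**
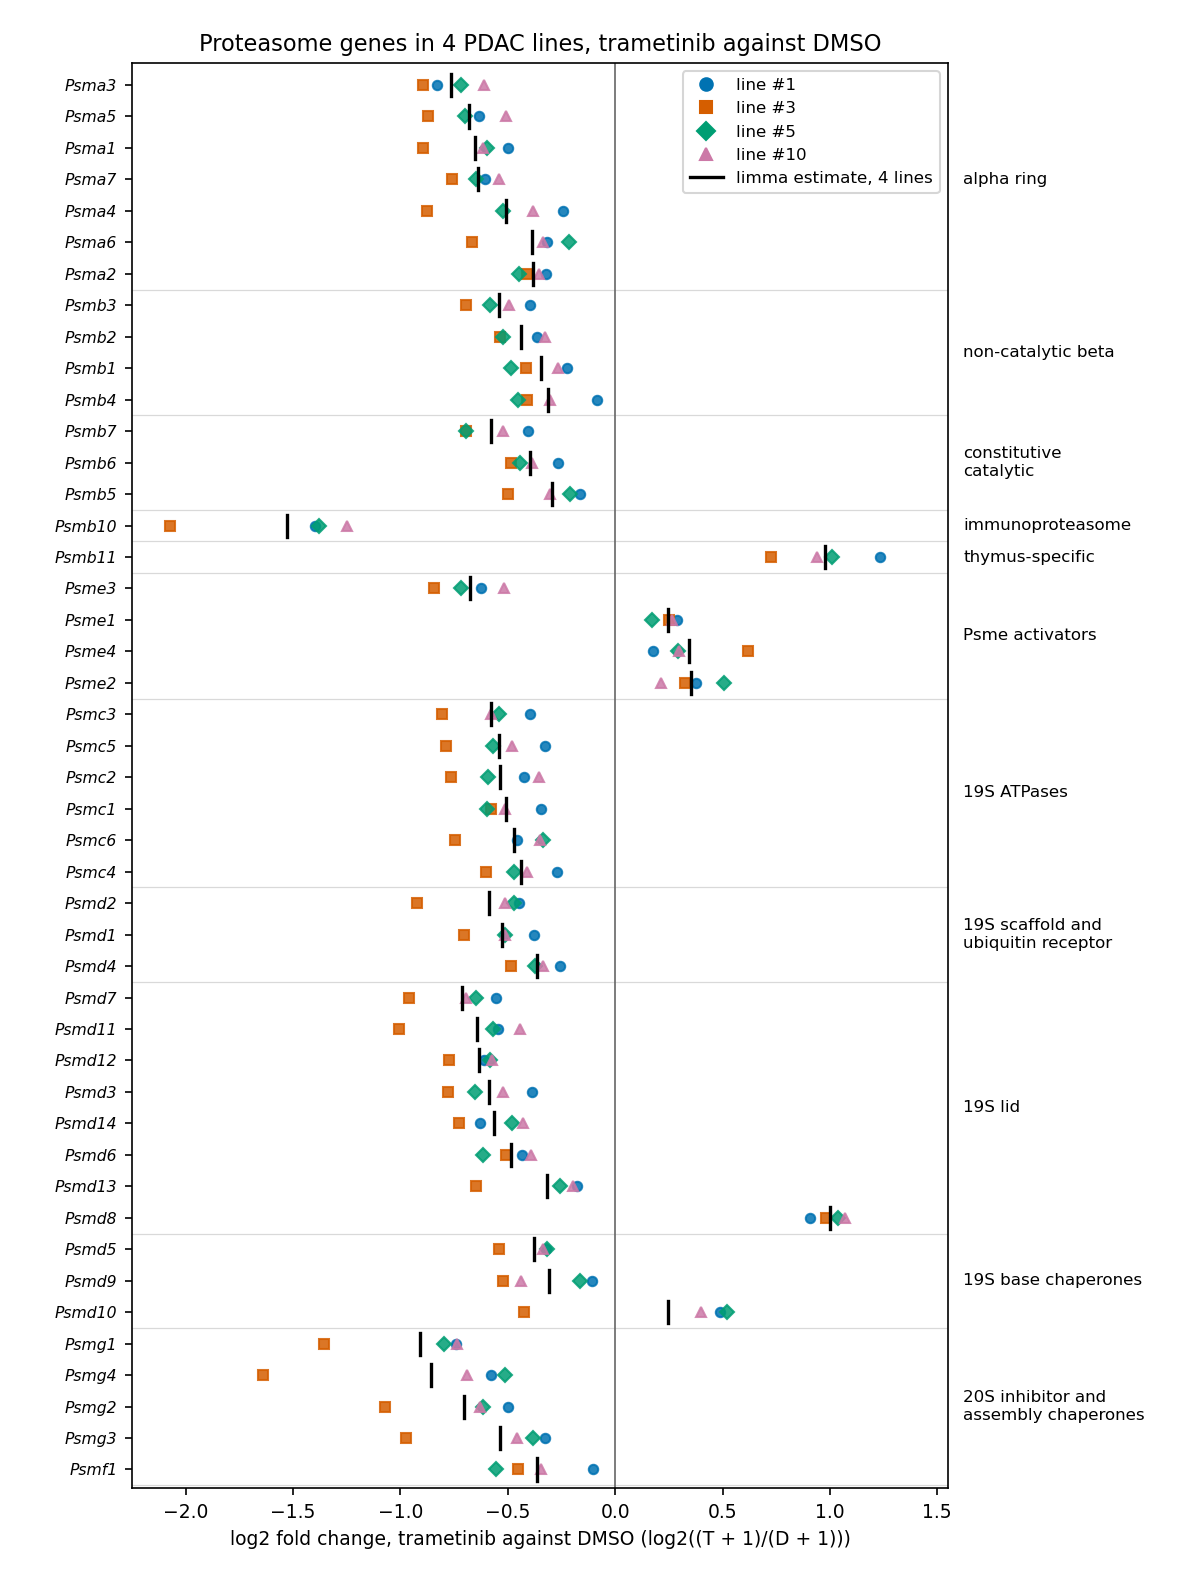
Log2FC, trametinib against DMSO (x axis, log2 of normalized counts plus 1), of the 45 tested proteasome genes (rows, by group); each marker is 1 of the 4 lines and the black bar is the limma estimate. Most genes lie below 0 in every line, Psmd8 lies at 0.91 to 1.07, Psmb10 at -2.07 to -1.25, and line #3 is the lowest marker in 35 of 45 genes.

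**Figure D2:**
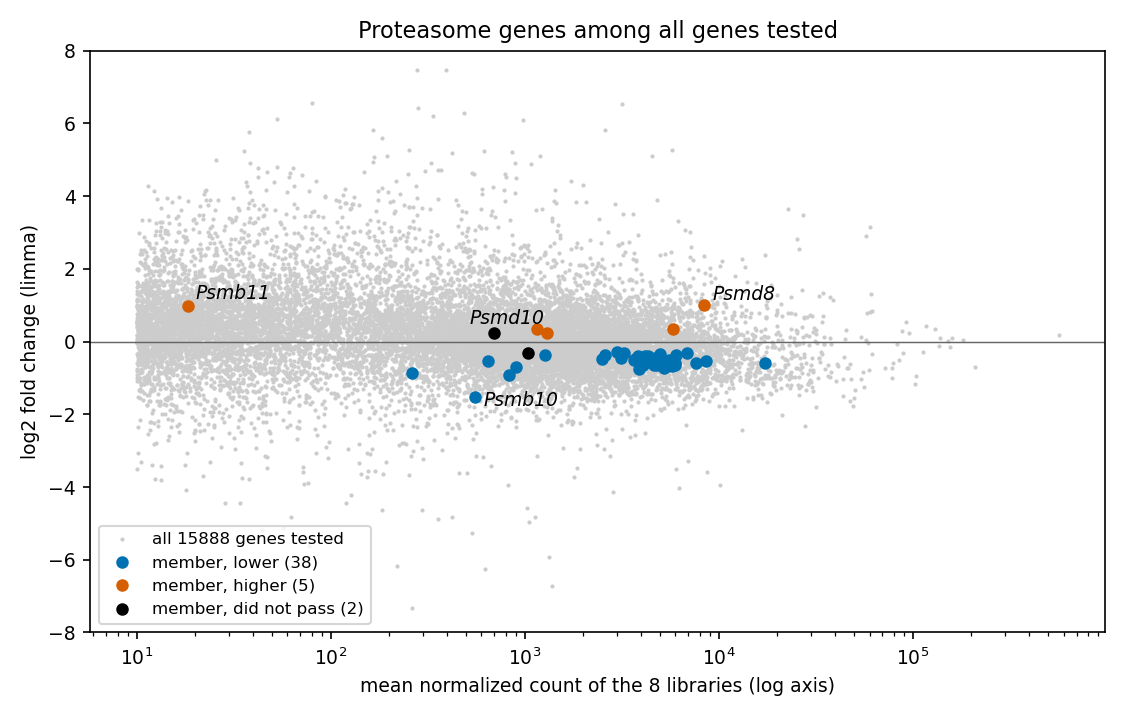
Limma log2FC (y axis) against the mean normalized count of the 8 libraries (x axis, log scale) for all 15888 genes tested, in grey, with the tested proteasome genes colored by call. Blue points (38 lower) form a band near -0.50 at high means, and orange points (5 higher) include Psmd8 at 1.00.

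The fall was deepest in line #3. This line had the lowest log2FC of the 4 in 35 of the 45 tested members, or 77.8%, while it was the lowest in 37.5% of all genes tested. Among members called lower the share was 84.2%, and among all 4075 genes called lower it was 67.9%. Without line #3 the median of all members was -0.43, and 38 members were lower and 5 higher. The median log2FC of the 7 duct epithelium markers was also lowest in line #3, at -1.36 against -0.67 to -0.30 in the other lines, and its part in the proteasome values was not tested.

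The starts of the genes were read in a RefSeq table of promoters on GRCm38.p6, the build called mm10 by the submitters, which holds 300 bases for each start, 250 before it and 50 after. It matched 40 of the 47 members. Both strands were searched for 4 motifs. CCGGAAG, the core bound by ETS factors, a family that includes several end points of MAPK signaling, was present for 14 of 40 members (35%) and for 9.93% of all 27025 genes in the table. TGACNNNGC, the antioxidant response core to which Nfe2l1 and Nfe2l2 bind, was present for 6 of 40 members (15%) and 14.0% of genes. The interferon-stimulated response element, searched as a pair of GAAA blocks spaced by 2 bases, was present for 5 of 40 (12.5%) and 3.99%, and TTCNNNGAA, the core of gamma-activated sites, for 3 of 40 (7.5%) and 9.55%. No motif of the 4 was found in the windows of Psmd8 and Psmb10, which says only that these letters are not there. No 2 matches overlap in the windows shown. The following windows, written 5′ to 3′ on the gene's strand with the match in capitals, show the ETS core or its reverse complement for 3 members that fell and for Psme4, which rose, the antioxidant core of Psmb5, and the gamma-activated core of Psmb8.
Psmd12, chr11:107479503-107479525, plus strand: gcgggcgaCTTCCGGtgcgagtg
Psmd2, chr16:20651618-20651640, plus strand: gcagggcgCTTCCGGtctggagg
Psme3, chr11:101316098-101316120, plus strand: cacaaggcCCGGAAGctccgaca
Psme4, chr11:30771714-30771736, plus strand: gccccgccCCGGAAGtgacttga
Psmb5, chr14:54618026-54618050, minus strand: tgaagttgTGACGTCGCggcgttgc
Psmb8, chr17:34198090-34198114, plus strand: ctccgctgTTCCCAGAAgatgcccc
Of the 14 members with the ETS core, only Psme4 was higher with trametinib, and all the others, Psmd12, Psmd2 and Psme3 among them, were lower. Over all tested members, 38 of 45 were lower. Whether the core has a part in these changes was not tested. GENCODE M21 puts some starts elsewhere: by its positions the windows of Psmd12 and Psmb8 lie inside the gene and that of Psme4 spans its start. A match is a description of the sequence, and binding was not measured.

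In the 20S core, the 14 subunits of the standard particle were all lower, with a median log2FC of -0.48 ± 0.15 (SD, n = 4 lines) and no line above 0 for any of them. The 7 alpha subunits, which form the outer rings and the gate, had a median of -0.62 ± 0.18 (SD, n = 4 lines). Psma3 was the lowest of them, at 5337, 4402, 4759 and 5059 normalized counts in the DMSO libraries of lines #1, #3, #5 and #10 and at 2998, 2364, 2895 and 3316 with trametinib. The 2 groups did not overlap, and the log2FC was -0.76 (SE 0.09, adjusted p = 0.00078 in limma). Psma2 was the highest, with a log2FC of -0.38 and -0.45 to -0.32 in the lines (adjusted p = 0.0059 in limma, 0.13 without the block). Its counts ran from 3830 to 5492 with DMSO and from 2882 to 4192 with trametinib, so that the ranges overlapped. The 4 beta subunits without a proteolytic site, Psmb1 to Psmb4, had a median of -0.40 ± 0.11 (SD, n = 4 lines). They ran from Psmb3 at -0.54 (adjusted p = 0.0023 in limma) to Psmb4 at -0.31 (adjusted p = 0.027 in limma). The call of Psmb4 was lost without line #5 (adjusted p = 0.12), without line #10 (0.094), without the block (0.26), with equal totals (0.12), with quantile normalization (0.14), without a filter (0.052) and without the variance trend (0.069).

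The 3 constitutive catalytic subunits were lower, with a median log2FC of -0.40 ± 0.10 (SD, n = 4 lines). Psmb5, which carries the chymotrypsin-like site, lies at chr14:54614119-54618022 on the minus strand of GRCm38. It stood at 3950, 3412, 2486 and 3268 normalized counts in the DMSO libraries of lines #1, #3, #5 and #10 and at 3529, 2412, 2147 and 2644 with trametinib. Each line was lower, but the ranges overlapped. The log2FC was -0.29 (SE 0.09, adjusted p = 0.031 in limma), and the call was lost without line #1 (adjusted p = 0.058), #5 (0.071) or #10 (0.11) and without the block (0.29). It was also lost with equal totals, where the log2FC was -0.17 (adjusted p = 0.16), with quantile normalization (0.13), without a filter (0.060) and without the variance trend (0.073). Psmb6, with the caspase-like site, lies at chr11:70525367-70527858 on the plus strand. It went from 4265, 5130, 4849 and 5556 to 3542, 3660, 3566 and 4249 normalized counts. The lowest DMSO library, at 4265, lay just above the highest trametinib library, at 4249, and the log2FC was -0.40 (SE 0.08, adjusted p = 0.0063 in limma). Psmb7, with the trypsin-like site, lies at chr2:38588036-38644087 on the minus strand. It went from 6308, 5867, 6437 and 9823 to 4767, 3620, 3975 and 6839 normalized counts. Line #10 was the highest with both treatments and its trametinib value exceeded the DMSO values of the other lines, so that the ranges overlapped although each line was lower. The log2FC was -0.58 (SE 0.09, adjusted p = 0.0020 in limma, 0.097 without the block). Exons of Psmb7 overlap those of Nek6 on the other strand and exons of Psmb5 hold Mir686, and a pseudogene, Psmb7-ps2, is a separate row, so some reads could be shared.

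Of the immunoproteasome subunits, only Psmb10 was expressed well above the floor, and it fell in every line. Psmb10, also called MECL-1, takes the place of Psmb7 and lies at chr8:105935735-105938444 on the minus strand. Its normalized counts were 594, 904, 711 and 1083 in the DMSO libraries of lines #1, #3, #5 and #10 and 224, 214, 272 and 454 in the trametinib libraries. The highest trametinib library lay below the lowest DMSO library. The log2FC was -1.53 (SE 0.16, adjusted p = 0.00068 in limma), so that 34.7% of the DMSO level was left, and it was the lowest log2FC of the tested members. Over the alternatives it stayed between -1.67 and -1.34 with an adjusted p of at most 0.0067 in limma. Psmb10 fell more than Psmb7 in each line, with a difference of log2FC values of -0.95 ± 0.32 (SD, n = 4 lines), the largest in line #3 at -1.38 and the smallest in line #5 at -0.69 (two-sided exact permutation test over the signs of the lines, p = 0.13, which is as low as 4 lines can give). Per kilobase of transcript, the count of Psmb10 was 10.4% ± 2.3 of that of Psmb7 with DMSO and 5.3% ± 0.86 with trametinib (SD, n = 4 lines).

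Psmb8 and Psmb9, also called LMP7 and LMP2, were at or near the floor. Both lie in the MHC region of chromosome 17, at 34197721 to 34201454 on the plus strand and at 34181987 to 34187764 on the minus strand. Psmb8 stood at 1.14, 0, 1.82 and 0 normalized counts in the DMSO libraries of lines #1, #3, #5 and #10, all at or under the floor. With trametinib it stood at 3.28, 0.58, 2.73 and 8.34, of which the values of lines #1, #5 and #10 were above the floor of their libraries. Psmb9 stood at 1.94, 1.51, 4.32 and 0 with DMSO and at 0.71, 0.69, 1.16 and 0 with trametinib, and 7 of 8 libraries were at or under the floor. Values set no lower than the floor gave a level of Psmb8 per kilobase of at most 0.17% of that of Psmb5, and of Psmb9 of at most 0.053% of that of Psmb6. No fold change is given for these 2 genes, since all DMSO values of Psmb8 and 7 of 8 values of Psmb9 were at or under the floor. Psmb8 was the higher value with trametinib in all 4 lines. Exons of Psmb8 overlap those of Gm20496 and exons of Psmb9 those of Tap1 on the other strand, and whether reads were counted by strand is not stated.

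**Figure D3:**
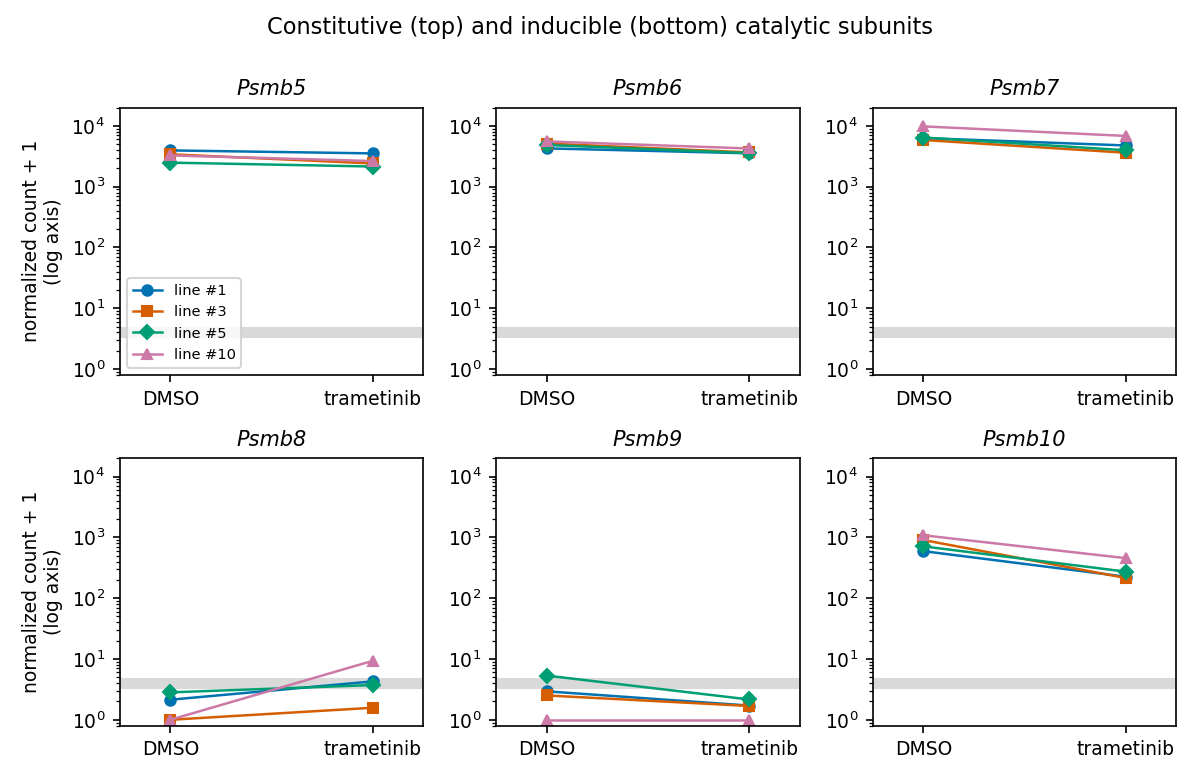
Normalized count plus 1 (y axis, log scale) of the 3 constitutive catalytic subunits (top) and the 3 inducible ones that replace them (bottom) with DMSO and with trametinib; each line joins the 2 libraries of a cell line and the grey band spans the floors of 3 reads. Psmb8 and Psmb9 lie at or near the band while Psmb10 lies above 200 in all libraries and falls in all 4 lines.

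The thymus-specific subunit Psmb11, known as beta5t and used by cortical epithelial cells of the thymus, was higher with trametinib at a low level. Its normalized counts went from 7.76, 23.9, 7.45 and 10.6 to 19.6, 40.2, 15.99 and 21.2 in lines #1, #3, #5 and #10. The ranges overlapped because line #3 was high with both treatments. The log2FC was 0.98 (SE 0.30, adjusted p = 0.031 in limma), higher in 4 of 4 lines. The adjusted p was 0.057 to 0.10 with any 1 of the lines left out and 0.17 without the block, so that the call rests on all 4 lines. It was 0.082 without a filter and 0.18 with quantile normalization, where the log2FC was 0.55. Per kilobase, its median with DMSO was 2.16 normalized counts, against 3715 for Psmb5.

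The Psme activators did not move together: Psme3 was lower, and Psme1, Psme2 and Psme4 were higher. The median log2FC of the 4 genes was 0.25 ± 0.03 (SD, n = 4 lines). Psme3, the PA28 gamma ring of the nucleus, lies at chr11:101316213-101323537 on the plus strand. It went from 6821, 6521, 8082 and 6928 to 4418, 3632, 4921 and 4844 normalized counts, without overlap, with a log2FC of -0.68 (SE 0.09, adjusted p = 0.0012 in limma). Psme1 and Psme2 lie close to each other on chromosome 14. Psme1 went from 1276, 1203, 1083 and 1224 to 1560, 1431, 1220 and 1471, higher in 4 of 4 lines with overlapping ranges, and its log2FC was 0.24 (SE 0.08, adjusted p = 0.047 in limma). That call was lost without line #1 (adjusted p = 0.15), #5 (0.099) or #10 (0.16), without the block (0.20), with libraries centred on their medians (0.13), without a filter (0.089) and without the variance trend (0.079). Psme2 went from 1086, 1006, 965 and 1007 to 1409, 1261, 1371 and 1166, without overlap, and its log2FC was 0.35 (SE 0.09, adjusted p = 0.018 in limma). It did not pass without line #1 (adjusted p = 0.070), without #5 (0.083) or without the block (0.064). The close copy Psme2b is a separate row of the table, so the split of reads between the copies is uncertain, and exons of Psme1 overlap those of Emc9 on the other strand.

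Psme4, or PA200, was higher as well. Its normalized counts went from 5056, 5157, 4872 and 5374 to 5710, 7913, 5971 and 6607, and all trametinib libraries lay above all DMSO libraries. The log2FC was 0.35 (SE 0.10, adjusted p = 0.023 in limma), from 0.18 in line #1 to 0.62 in line #3. The call was lost without line #5 (adjusted p = 0.067) or #10 (0.071), with centring on the median (0.081), without the block (0.081) and without the variance trend (0.060). Line #3, which had the deepest fall of Psme3 at -0.84, thus had the highest rise of Psme4. Psme1 lay 0.92 ± 0.13 above Psme3 in log2FC, Psme2 1.03 ± 0.22 and Psme4 1.02 ± 0.31 (SD, n = 4 lines), each in all 4 lines.

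**Figure D4:**
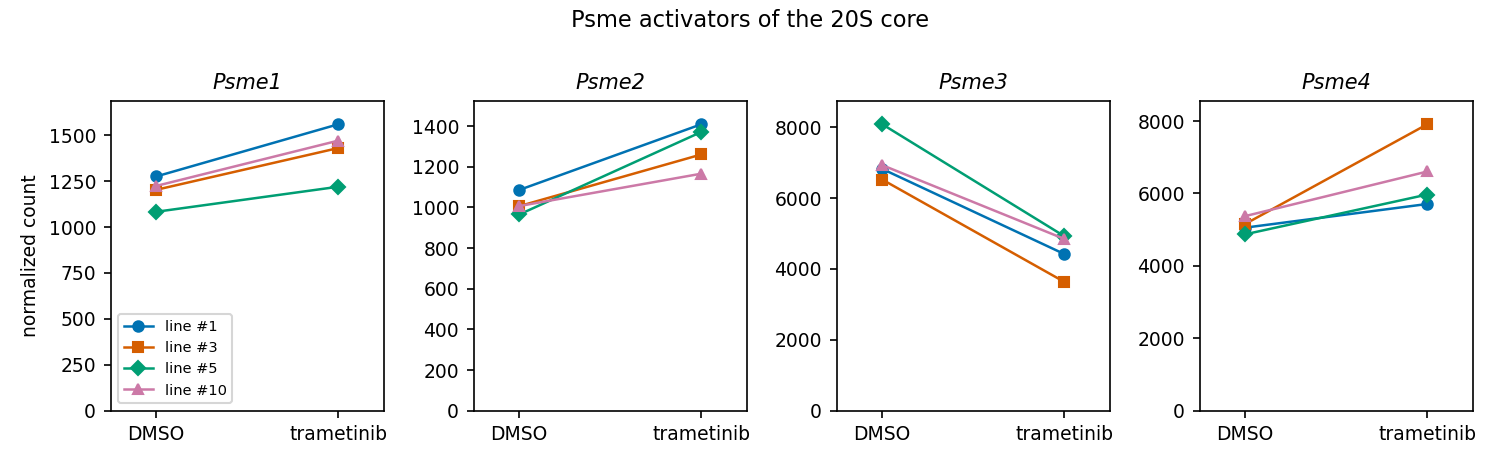
Normalized counts (y axes, each from 0) of the 4 Psme genes with DMSO and with trametinib; each line joins the 2 libraries of a cell line. Psme1, Psme2 and Psme4 rise in all 4 lines and Psme3 falls in all 4, from 6521 to 8082 with DMSO to 3632 to 4921 with trametinib.

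The 19S cap had 20 members in the table, of which 17 were lower, 1 was higher and 2 did not pass, with a median log2FC of -0.51 ± 0.15 (SD, n = 4 lines). The 6 ATPases of the base, Psmc1 to Psmc6, were all lower and lay within a narrow range, from Psmc3 at -0.58 (adjusted p = 0.0025 in limma, 0.053 without the block) to Psmc4 at -0.44 (adjusted p = 0.0058 in limma, 0.12 without the block). Psmc3 went from 6179, 5502, 6118 and 8166 to 4701, 3147, 4205 and 5466 normalized counts, without overlap. The scaffold subunits Psmd1 and Psmd2 and the ubiquitin receptor Psmd4 were lower too. Psmd2 was the lowest of the 3, with a log2FC of -0.59 (adjusted p = 0.0045 in limma), and line #3 was at -0.92. The adjusted p was 0.19 without the block and 0.056 with quantile normalization. Psmd4 was the highest, at -0.36 (adjusted p = 0.0089 in limma, 0.18 without the block and 0.051 with quantile normalization).

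In the lid, which removes ubiquitin from the substrate, 7 of 8 subunits were lower and Psmd8 was higher. Psmd8, also called Rpn12, joins last in lid assembly and lies at chr7:29174188-29180701 on the minus strand, where its exons overlap those of no other annotated gene. In the same order of lines it stood at 7704, 4000, 6123 and 4756 normalized counts with DMSO and at 14448, 7895, 12592 and 9995 with trametinib. The lowest trametinib library lay above the highest DMSO library. The log2FC was 1.00 (SE 0.08, adjusted p = 0.00032 in limma), and the lines lay between 0.91 and 1.07. Over the alternatives it stayed between 0.94 and 1.17 with an adjusted p of at most 0.0185 in limma. In each line Psmd8 lay above the median log2FC of the other 7 lid subunits, by 1.59 ± 0.13 (SD, n = 4 lines). The lowest lid subunit was Psmd7, the partner of the deubiquitinase Psmd14. It went from 6599, 6001, 6620 and 6736 to 4485, 3088, 4229 and 4163 normalized counts, with a log2FC of -0.71 (SE 0.09, adjusted p = 0.0012 in limma). Psmd14 itself had a log2FC of -0.57 (adjusted p = 0.0021 in limma). Psmd13 was nearest to 0 among the lower lid subunits, at -0.32 (adjusted p = 0.039 in limma), and did not pass without line #1 (0.070), #5 (0.094) or #10 (0.080), without the block (0.18), with equal totals (0.165), with quantile normalization (0.14), without a filter (0.073) or without the variance trend (0.088). The log2FC of Psmd13 was -0.65 in line #3 and -0.26 to -0.18 in the other lines. It was -0.21 without line #3 and -0.19 with equal totals.

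**Figure D5:**
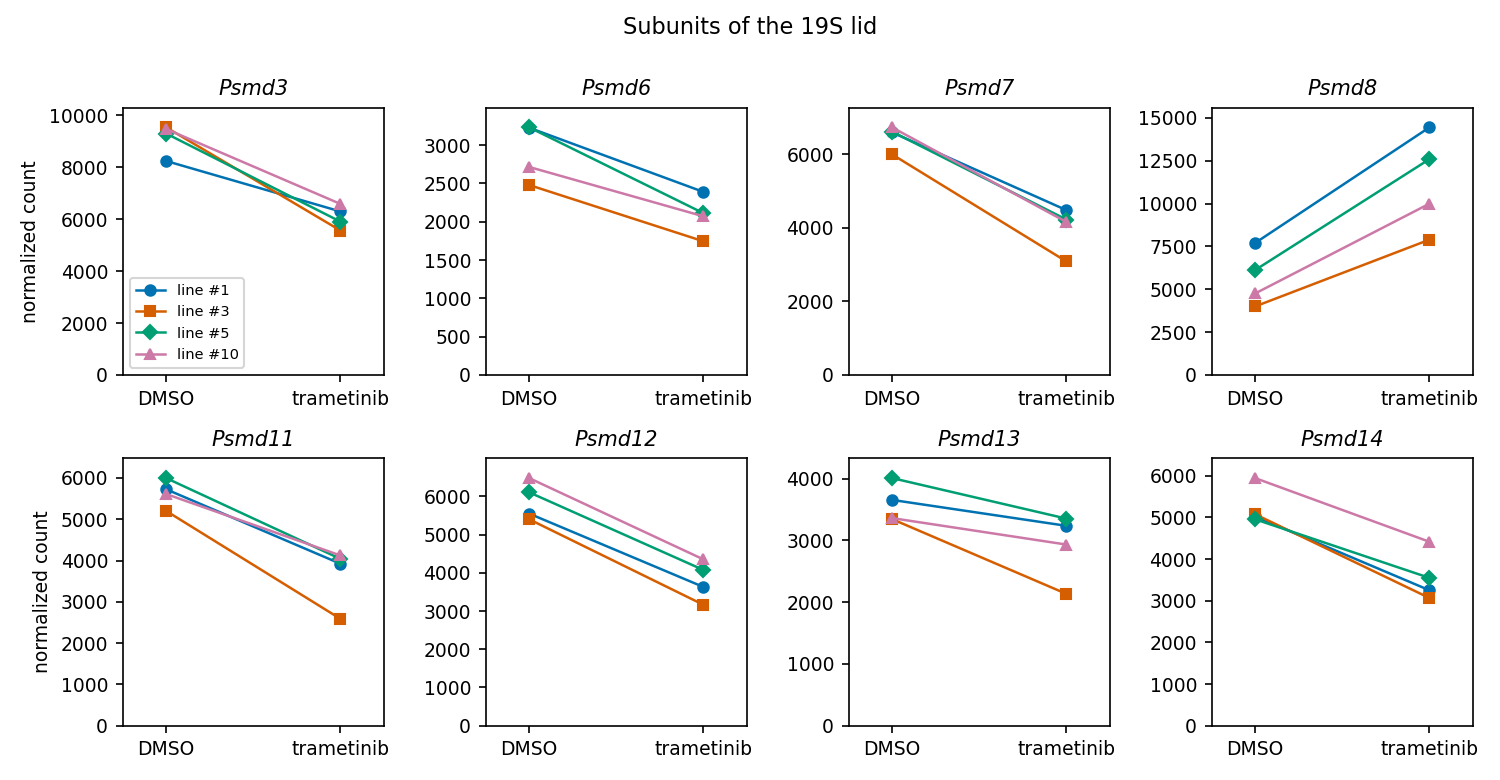
Normalized counts (y axes, each from 0) of the 8 lid subunits with DMSO and with trametinib; each line joins the 2 libraries of a cell line. Psmd8 rises from 4000 to 7704 with DMSO to 7895 to 14448 with trametinib, and the other 7 subunits fall in all 4 lines.

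Psmd5, Psmd9 and Psmd10 are chaperones that help to assemble the base and are not part of the finished particle. Psmd5 was lower, with a log2FC of -0.38 (adjusted p = 0.0089 in limma, 0.24 without the block). Psmd9 had a log2FC of -0.31 (adjusted p = 0.052 in limma) and was the lower value with trametinib in 4 of 4 lines. It passed with centring on the median (adjusted p = 0.017) and with a filter at a mean of 50 (0.047). Psmd10, known as gankyrin, split the lines. It stood at 793, 488, 552 and 621 normalized counts with DMSO and at 1113, 363, 792 and 819 with trametinib in lines #1, #3, #5 and #10. Trametinib was the higher value in 3 lines and the lower in line #3, and the log2FC was 0.25 (adjusted p = 0.28 in limma). Without line #3 it was 0.47 (adjusted p = 0.0073 in limma).

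The assembly chaperones of the 20S core, Psmg1 to Psmg4, and the inhibitor Psmf1 were all lower, with the lowest median of the groups of more than 1 tested gene, -0.69 ± 0.26 (SD, n = 4 lines). Psmg1, which pairs with Psmg2 to build alpha rings, was the lowest of them. It went from 1087, 947, 1134 and 1155 to 649, 369, 651 and 693 normalized counts, without overlap, with a log2FC of -0.91 (SE 0.14, adjusted p = 0.0020 in limma). Its value in line #3 was -1.36, against -0.80 to -0.74 in the others. Psmf1 was nearest to 0, at -0.36 (adjusted p = 0.026 in limma), and did not pass without line #5 (0.11), #10 (0.085) or the block (0.175), with equal totals (0.093) or without the variance trend (0.055).

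Per kilobase of transcript, levels of the members with DMSO differed widely between genes. The median over the 4 DMSO libraries was highest for Psma7 at 7441 normalized counts per kilobase (7277 to 9489), followed by Psmd2 at 7397 (4555 to 8372). The ranges of these 2 overlap, so their order is not fixed. Psmb6 and Psmb7 stood at 6253 and 5494, Psmb5 at 3715 and Psmd8 at 2743. Of the activators, Psme3 stood at 2581, within the range of Psmd8 (2017 to 3885), Psme1 at 1092, Psme2 at 1046 and Psme4 at 787. Psmb10 stood at 616, and the bottom of the order was Psmb11, Psmb9 and Psmb8. These values use 1 transcript length for each gene and do not account for isoforms.

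Genes around the proteasome, picked by function from outside the name rule, were tested in the same fit. Of 8 other subunits and partners, 5 were lower, none was higher and 3 did not pass, with a median log2FC of -0.44 ± 0.14 (SD, n = 4 lines). The lowest was Uchl5, a deubiquitinase of the 19S cap, which went from 2484, 2476, 2542 and 2712 to 1504, 788, 1214 and 1447 normalized counts. Its log2FC was -1.09 (SE 0.16, adjusted p = 0.0017 in limma). The highest was Akirin2, which carries proteasomes into the nucleus, at -0.01 (adjusted p = 0.95 in limma), and its sign changed with quantile normalization, with equal totals, without line #1 and without line #10. Of 13 genes for ubiquitin, its activating enzymes and shuttles, 9 were lower, 2 were higher and 2 did not pass. The lowest was Rps27a, which encodes ubiquitin fused to a ribosomal protein, at -1.10 (adjusted p = 0.0024 in limma).

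Nfe2l1, also called NRF1, encodes a transcription factor that activates proteasome genes when proteasome capacity falls, after Vcp has pulled it from the membrane, Ngly1 has removed its sugars and the protease Ddi2 has cut it. Nfe2l1 RNA rose with trametinib, opposite to most proteasome genes. Its normalized counts with DMSO were 5773, 7139, 6035 and 5503 in lines #1, #3, #5 and #10, and with trametinib 11637, 12676, 14182 and 10111. No trametinib library overlapped the DMSO libraries, and the log2FC was 0.99 (SE 0.10, adjusted p = 0.00054 in limma). Of the others, Syvn1, the ligase that keeps the protein low, was higher at 0.56 (adjusted p = 0.0020 in limma, 0.059 without the block). Ngly1 was lower at -0.84 (adjusted p = 0.0025 in limma), Ddi2 at -0.56 (adjusted p = 0.0055 in limma, 0.051 without the block) and Vcp at -0.41 (adjusted p = 0.0071 in limma, 0.13 without the block and 0.30 with quantile normalization). The related factor Nfe2l2, or NRF2, was lower, from 6304 to 8640 normalized counts with DMSO to 3362 to 5520 with trametinib, with a log2FC of -0.81 (adjusted p = 0.00065 in limma). RNA levels do not show how much of either factor was active.

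The interferon side of the immunoproteasome comprised 8 genes that induce it or use its peptides, of which 4 were higher, none was lower, 3 did not pass and Tap1 was too low to be tested. B2m, the light chain of MHC class I, went from 2139, 2947, 2306 and 2935 to 5091, 9382, 5375 and 6507 normalized counts, with a log2FC of 1.32 (SE 0.11, adjusted p = 0.00033 in limma). Tapbp, which loads peptides on MHC class I, went from 319, 406, 291 and 264 to 1078, 1177, 809 and 978, with a log2FC of 1.66 (SE 0.12, adjusted p = 0.00025 in limma). In both genes all trametinib libraries lay above all DMSO libraries. The peptide transporter gene Tap2 was higher at 1.80 (adjusted p = 0.033 in limma), from 3.53 to 33.7 normalized counts with DMSO to 11.7 to 81.2 with trametinib, and did not pass without line #1, where the log2FC was 1.09 (adjusted p = 0.072), without #5 (0.073), without the block (0.12), with quantile normalization (0.10), without a filter (0.062) or without the variance trend (0.057). Its partner Tap1 stood at 3.23 to 13.7 with DMSO and 3.65 to 9.55 with trametinib.

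Of the inducers, Irf1, which binds the promoters of Psmb9 and Tap1 in interferon-treated cells, went from 716, 1076, 832 and 938 to 1040, 1163, 1464 and 1042 normalized counts. It was higher in 4 of 4 lines at 0.40 (adjusted p = 0.049 in limma), and the call was lost without line #1 (0.155), #5 (0.18) or #10 (0.063) and without the block (0.125). Without #5 the log2FC was 0.27. The call was also lost with a pseudocount of 0.1 (0.051), with centring (0.055), without a filter (0.082) and with both other variance models (0.091 and 0.0502). The MHC class I activator Nlrc5 had 0.57 (adjusted p = 0.45 in limma), from -1.25 in line #10 to 1.97 in line #1. Its level was low, at 1.00 to 16.5 normalized counts with DMSO and 2.39 to 55.6 with trametinib. In 2 libraries, among them line #10 with trametinib, Nlrc5 was at or under the floor. Over the alternatives in which it was tested, the log2FC of Nlrc5 ran from 0.02 to 1.17. The trimming peptidase Erap1 had 0.05 (adjusted p = 0.80 in limma), and its sign changed with centring on the median and without line #5. Psmb10 thus fell in lines in which B2m and Tapbp rose, while Psmb8 and Psmb9 stood at or near the floor beside them.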

How the data were processed

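RNA of 4 murine PDAC lines was prepared with a stranded mRNA kit and sequenced in pairs of reads. The authors deposited normalized counts (a signal scaled between libraries). The submitters' processing notes name CASAVA 2.17, Salmon 0.12, DESeq2 1.18 and mm10, with no role or order. All 8 columns were used. Whole reads could not be recovered, since 55.7 to 68.0% of low values lay within 0.05 read of a whole multiple, so count tests were not run. Values were tested as log2(value + 1) with limma 3.58.1 in R 4.3.3 (lmFit, eBayes with trend, treatment plus cell line), for genes with a mean of at least 10, with Benjamini-Hochberg adjustment. Line numbers in the labels pair the libraries, and paired libraries deviated together (correlation across genes 0.63 to 0.72). Fold changes of low genes are understated on this scale.

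The members and lists were chosen with earlier results of these data known. All members of the catalytic, immunoproteasome, thymus-specific and Psme groups are named, and of the other groups the highest and lowest and any called higher. Of the lists around the proteasome, those of the NRF1 route and the interferon side are named, and of the others the highest and lowest. Some items are not reported here. Psmd9, Psmd12, Psmd13 and Psmd14 were named after their values were seen. Subunit differences were tested by an exact sign-flip permutation test over lines, only for Psmb10 and Psmb7. Positions and overlaps are from GENCODE M21 on GRCm38, promoter windows from RefSeq on GRCm38.p6. Python 3.11.15, numpy 2.4.6, pandas 2.3.3 and matplotlib 3.10.9 were used. Alternatives were pseudocounts of 0.1 and 5, equal totals, quantile normalization, centring, 2 other filters, 2 other variance models, no block, and each line left out.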

Additional observations from a re-analysis of the deposited data

Results flagged for a closer look

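In 13 of 135 sets of 4 values (each tested member's DMSO counts, trametinib counts and log2 fold changes over the lines), the highest or lowest value stood far from the other 3 by Dixon's criterion. Chance gives about 1 in 20, or 6.75 sets. Line #3 was the one apart in 9 of them. With trametinib, its normalized counts stood at 2226 for Psmc6 (3406 to 3467 in the other lines), 2588 for Psmd11 (3922 to 4123), 369.3 for Psmg1 (649.2 to 692.9) and 367.8 for Psmg3 (573 to 611.8). Its log2 fold changes were -0.92 for Psmd2 (-0.51 to -0.45 in the other lines), -0.54 for Psmd5 (-0.34 to -0.32), -1.36 for Psmg1 (-0.80 to -0.74), -1.64 for Psmg4 (-0.69 to -0.51) and -0.43 for Psmd10 (0.40 to 0.52). Line #10 was the high one in the remaining 4. With DMSO it stood at 8673 normalized counts for Psma7 (6651 to 6808), 9823 for Psmb7 (5867 to 6437) and 5942 for Psmd14 (4953 to 5073), and with trametinib at 4249 for Psmb6 (3542 to 3660).

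Psmd10 also moved in opposite directions, at -0.43 in line #3 and above 0 in the other lines, with 1 library per line and treatment. That difference between lines was not tested.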

How the results depend on the processing

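Of the 45 tested members, 20 kept their direction and their side of the threshold under all 14 alternatives, and no member reversed. The count of lower members was 31 to 39 under every alternative but the fit without the replicate block, which gave 19. The count of higher members was 3 with centring on the median, 3 without a filter, 3 without the variance trend and 1 without the replicate block, and it was 1 to 5 with a line left out. The median log2 fold change of the constitutive catalytic subunits moved to -0.27 with equal totals and with quantile normalization. That of the immunoproteasome subunits was the value of Psmb9, near the floor, and is not given; it was -1.67 with quantile normalization and -1.53 with a filter at a mean of 50, each over Psmb10 alone. The median log2 fold change of the Psme genes was 0.38 with equal totals, 0.32 with quantile normalization and 0.19 with centring. These are medians per line averaged over the lines, 0.25 in the main setting. The value was 0.30 without the replicate block, but there it is the median of the limma log2 fold changes of these genes. That median was 0.30 with the block as well, so leaving out the block did not move it. Equal totals moved the median of the limma log2 fold changes of all genes tested from 0.07 to 0.20, so the falls are smaller on that scale. The median of all members, taken per line and averaged over the lines, was -0.37 there and -0.50 in the main setting. The depth limits Psmb8 and Psmb9, and 1 library per line and treatment leaves no spread within a line.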
